A study of Mus musculus with 5 samples.

Results

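Basement membrane genes were followed in the cells that line and surround the vessels of mouse bone marrow. The 10 genes were taken as a list, out of 30099 gene symbols in 5 single-cell RNA sequencing libraries: Col4a1, Col4a2, Col15a1, Col18a1, Lama4, Lamb1, Lamc1, Nid1, Nid2 and Hspg2. All 10 were detected. The list was chosen with earlier results of these data known. A basement membrane is a thin sheet of extracellular matrix beneath endothelium and around pericytes. Laminin trimers and a collagen IV network form its main layers, nidogens and the heparan sulfate proteoglycan perlecan join them, and collagens XV and XVIII tie the sheet to the surrounding matrix. In marrow, this sheet is thin and discontinuous beneath the sinusoids, and reticular stromal cells that express Cxcl12 and the leptin receptor lie against it.

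Every mouse carried Lepr-cre and R26R-tdTomato, so that a red reporter marks cells in which the leptin receptor promoter has driven Cre, and their descendants. Red cells were sorted from enzymatically dissociated femurs whose distal growth plates and proximal ends had been taken off. The exhausted library came from mice of 15 weeks with marrow ablation surgery at 9 and at 13 weeks, and the naive library from mice of 15 weeks with 1 ablation at 13 weeks. The aged-injury library came from mice of 18 months, 1 week after 1 ablation. Mice of 18 months without surgery gave the aged library, and mice of 15 weeks without surgery gave the control library. Each group was 1 library and the number of animals is not given, so no group has a replicate and no test between groups was made. Libraries with and without surgery exist at both ages, but the time since surgery differs with age among the ablated ones, and a difference between libraries cannot be told apart from one between their groups.

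After filtering, 5242 to 19497 cells per library were kept, with median depths of 6671 to 9512 UMIs (unique molecular identifiers, each standing for 1 captured RNA molecule). Cells were assigned by marker genes that include none of the 10. The reticular gate (Cxcl12 and Lepr high) held 1450, 1298, 6432, 4012 and 3992 cells in the exhausted, naive, aged-injury, aged and control libraries. The endothelial gate (at least 5 of 10 endothelial markers) held 176, 264, 630, 51 and 52 cells in the same order, and Cdh5, encoding VE-cadherin, was at 869 to 1753 CPM (counts per 1000000 UMIs of the gate) in them, against 0.393 to 2.14 CPM in reticular cells. A pericyte gate that asked for 4 of 10 mural markers held 123, 275, 1003, 166 and 228 cells, but it also took in reticular-like cells, since Cxcl12 was at 12275 to 32726 CPM there. A narrower gate, added after this was seen, also required high Rgs5, a pericyte gene, and low Cxcl12. It held 48, 92, 252, 26 and 21 cells, with Rgs5 at 24771 to 31668 CPM and Cxcl12 at 226 to 723 CPM, and is called the Rgs5-high pericyte gate below. The Hmga2-positive stromal gate held 9, 21, 343, 4 and 22 cells. Its exhausted, aged and control cells were near the reticular cells, with Cxcl12 at 29862 to 36652 CPM and Cd248, a perivascular fibroblast gene, at 8.53 to 25.3 CPM, whereas in those of naive and aged-injury Cxcl12 was at 9051 and 7012 CPM and Cd248 at 129 and 157 CPM. Levels are given as CPM throughout, with exact 95% Poisson intervals where printed. These intervals cover counting error only, not the choice of cells or animals.

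The pair of collagen IV genes is shown first by sequence, because Col4a1 and Col4a2 lie head to head and their start regions overlap. RefSeq windows of 300 bases around each start, from the GRCm38.p6 build, were chr8:11312777-11313076 on the minus strand for Col4a1 and chr8:11312555-11312854 on the plus strand for Col4a2. They are written 5′ to 3′ on each gene's own strand, with capitals marking the 78 bases that both windows hold (chr8:11312777-11312854), read from opposite strands.
Col4a1: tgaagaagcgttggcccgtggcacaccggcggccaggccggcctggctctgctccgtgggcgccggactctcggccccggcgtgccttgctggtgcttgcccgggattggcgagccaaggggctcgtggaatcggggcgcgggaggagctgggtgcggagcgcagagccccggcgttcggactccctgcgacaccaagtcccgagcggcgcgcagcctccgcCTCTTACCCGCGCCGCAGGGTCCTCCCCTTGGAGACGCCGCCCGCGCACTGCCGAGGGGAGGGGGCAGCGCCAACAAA
Col4a2: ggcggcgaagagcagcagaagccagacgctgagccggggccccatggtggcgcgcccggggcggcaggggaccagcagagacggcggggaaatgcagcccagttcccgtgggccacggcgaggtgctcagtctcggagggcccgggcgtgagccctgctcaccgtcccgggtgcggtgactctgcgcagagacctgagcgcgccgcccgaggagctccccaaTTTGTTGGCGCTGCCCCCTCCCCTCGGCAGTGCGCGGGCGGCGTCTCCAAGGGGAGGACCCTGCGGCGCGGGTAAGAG
The annotated starts, at positions 11312826 for Col4a1 and 11312805 for Col4a2, make the transcripts overlap by 22 bases at their starts. A GC box (GGGCGG, searched on both strands) was found once in the shared stretch, and neither a CCAAT box (CCAAT) nor a TATA box (TATAAA) was. Of the 10 genes, 7 matched a window in the table, with 8 windows in all because Col18a1 has a pair. A GC box was in 6 of the 8 windows, against 35.66% of 32851 mouse windows of that length. The only GC box of the Col4a1 window is the one in the shared stretch, so that site lies in the Col4a2 window too. CCAAT was in 5 of the 8, against 37.41% of all windows, and TATAAA in 0 of the 8, against 13.62%. These matches describe letters, not binding.

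The collagen IV pair had parallel levels across gates and libraries. In Rgs5-high pericytes Col4a1 stood at 4633, 6672, 5254, 1399 and 2971 CPM in exhausted, naive, aged-injury, aged and control, against 1112, 1545, 1132, 951 and 1055 CPM in reticular cells. Col4a2 was at 2110, 3192, 2290, 807 and 1496 CPM in those pericytes, against 534, 752, 499, 393 and 469 CPM in reticular cells. For both genes the pericyte value lay above the reticular value of its own library in all 5. The 2 proteins assemble into a single trimer, so their ratio of counted molecules is of interest, although UMIs of different genes are captured with different efficiency and the ratio is read between gates only. It was 1.48 to 1.95 in endothelial cells, 1.73 to 2.29 in Rgs5-high pericytes and 2.05 to 2.42 in reticular cells. In each library the endothelial ratio was the lowest of the 3 gates. In aged endothelial cells it was 1.48 (95% interval 1.17 to 1.87) and in aged reticular cells 2.42 (2.36 to 2.47). Across 18 sums of cells by gate and library, log2 levels of the pair correlated with Pearson's r = 0.96, as a description, since these sums share libraries and depth. Reads from the overlapping start cannot be assigned if counting ignored strand, and whether it did is not given in the sources used here.

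**Figure D1:**
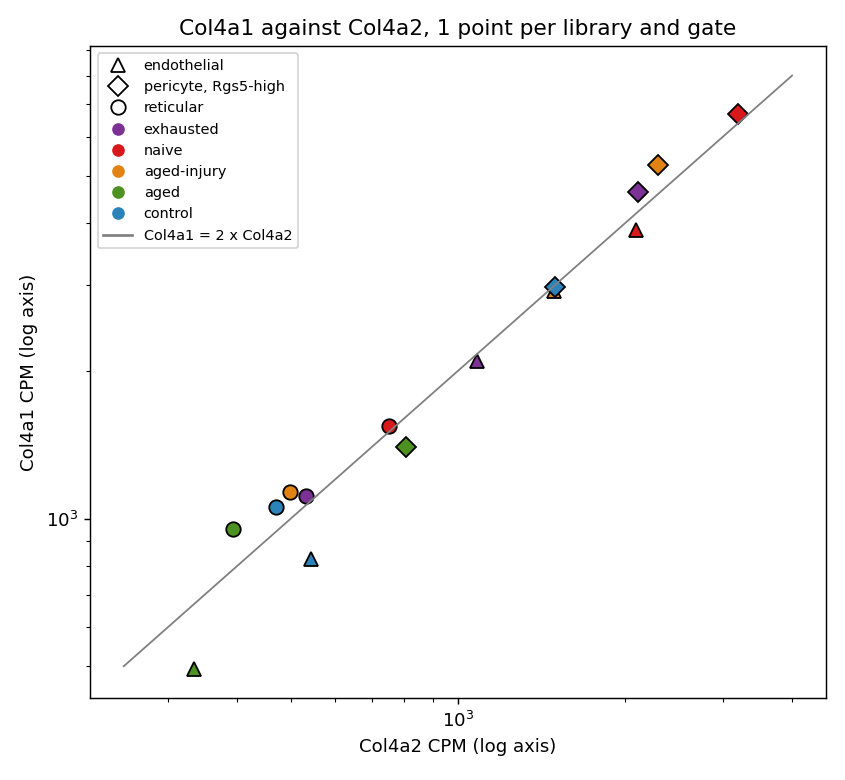
Col4a1 against Col4a2 in CPM on log axes, 1 point per library for endothelial cells, Rgs5-high pericytes and reticular cells, with a line at a ratio of 2. Endothelial points lie below the line in all 5 libraries and reticular points lie above it.

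Which cell type carries which basement membrane gene was tested within libraries, with edgeR's quasi-likelihood test on UMI sums per gate and the library as block. A gene was called at a Benjamini-Hochberg adjusted p under 0.05 over all genes tested and a change of at least 2-fold. Among the 10 genes, 3 were called higher and 1 lower in endothelial over reticular cells, against 15.2% of 13089 genes called higher and 17.5% called lower. The 10 genes had a median log2 fold change of 0.25, against -0.04 over all genes. In the fit with Rgs5-high gates the same counts were 3 higher and 1 lower, against 15.3% and 16.2% of 14754 genes.

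Hspg2, which encodes perlecan, was higher in endothelial cells of every library. It stood at 451, 704, 424, 271 and 360 CPM in endothelial cells of exhausted, naive, aged-injury, aged and control, against 68.6, 119, 53.8, 36.9 and 50.04 CPM in reticular cells. The groups did not overlap, and the log2 fold change was 2.62 ± 0.14 (SE, edgeR adjusted p = 9.0e-11), higher in 5 of 5 libraries. Hspg2 was also higher in endothelial cells than in Rgs5-high pericytes, by 2.47 ± 0.16 on the log2 scale (edgeR adjusted p = 1.11e-09), in 5 of 5 libraries.

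Col15a1, encoding collagen XV, was far higher in endothelial than in reticular cells. Endothelial cells held 593, 1182, 782, 327 and 464 CPM, against 1.43, 15.3, 23.0, 5.30 and 0.575 CPM in reticular cells. The fitted log2 fold change was 6.85 ± 0.66 (SE, edgeR adjusted p = 1.55e-07), higher in 5 of 5 libraries. Blood cells (Ptprc-positive), used as a measure of free RNA, held 4.95, 12.3, 37.9, 0.995 and 0.858 CPM in the same order. Reticular levels were at or below blood in exhausted, aged-injury and control, and above it in naive and aged, so the fold is set against values close to those of free RNA. The aged-injury blood value comes from 85 cells, with 38.8% of its Col15a1 UMIs in 1 cell. By cells, 42.0%, 69.3%, 53.3%, 25.5% and 51.9% of endothelial cells had a Col15a1 UMI, against 0.351% to 7.87% of reticular cells and 0.732% to 12.9% of blood cells. Thinned to 3000 UMIs per cell, the endothelial shares were 36.4%, 60.6%, 45.05%, 21.3% and 48.1%, and each remained above the reticular share of its library.

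Col18a1, encoding collagen XVIII, whose fragment endostatin limits vessel growth, had its highest levels in pericytes. Rgs5-high pericytes held 981, 1480, 1403, 273 and 745 CPM, endothelial cells 189, 285, 467, 61.1 and 86.0 CPM, and reticular cells 33.9, 39.9, 57.9, 18.96 and 12.6 CPM. In every library the order was pericyte, endothelial, reticular. Pericytes exceeded reticular cells by 4.50 ± 0.26 on the log2 scale (SE, edgeR adjusted p = 3.85e-10), and endothelial cells were below pericytes by a log2 fold change of -2.22 ± 0.24 (edgeR adjusted p = 7.57e-07). With the wider 4-marker gate, the endothelial and pericyte difference was not called.

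In Rgs5-high pericytes over reticular cells, 4 of the 10 genes were called higher and 2 lower, against 9.22% of 14754 genes higher and 10.4% lower. The 4 were Col4a1 (1.28 ± 0.29), Col4a2 (1.44 ± 0.23), Col15a1 and Col18a1, as log2 fold changes ± SE. Col15a1 was higher in 3 of 5 libraries only, at 52.5, 111 and 126 CPM in the ablated libraries. It had 0 UMIs in aged and control, where 3 UMIs would be 17.4 and 21.5 CPM, so its fit is no measure of size. The 2 lower genes were Lamb1 (log2 fold change -1.75 ± 0.32, edgeR adjusted p = 0.000351) and Nid2 (-2.08 ± 0.44, edgeR adjusted p = 0.00138), each in 5 of 5 libraries. With the wider 4-marker gate, 2 of the 10 genes were called higher, Col15a1 and Col18a1, and 0 lower, against 5.63% and 0.863% of genes. The number of genes called thus depended on the pericyte gate. In endothelial cells over Rgs5-high pericytes, 3 of the 10 genes were called higher, Col15a1, Nid2 and Hspg2, and 2 lower, Col4a1 and Col18a1, against 13.0% and 12.8% of genes. Nid2 was higher in 3 of 5 libraries there, with a log2 fold change of 1.18 (edgeR adjusted p = 0.0443). Over the 4-marker gate 2 were higher, Col15a1 and Hspg2, and 1 lower, Lamb1, against 13.2% and 18.2%.

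**Figure D2:**
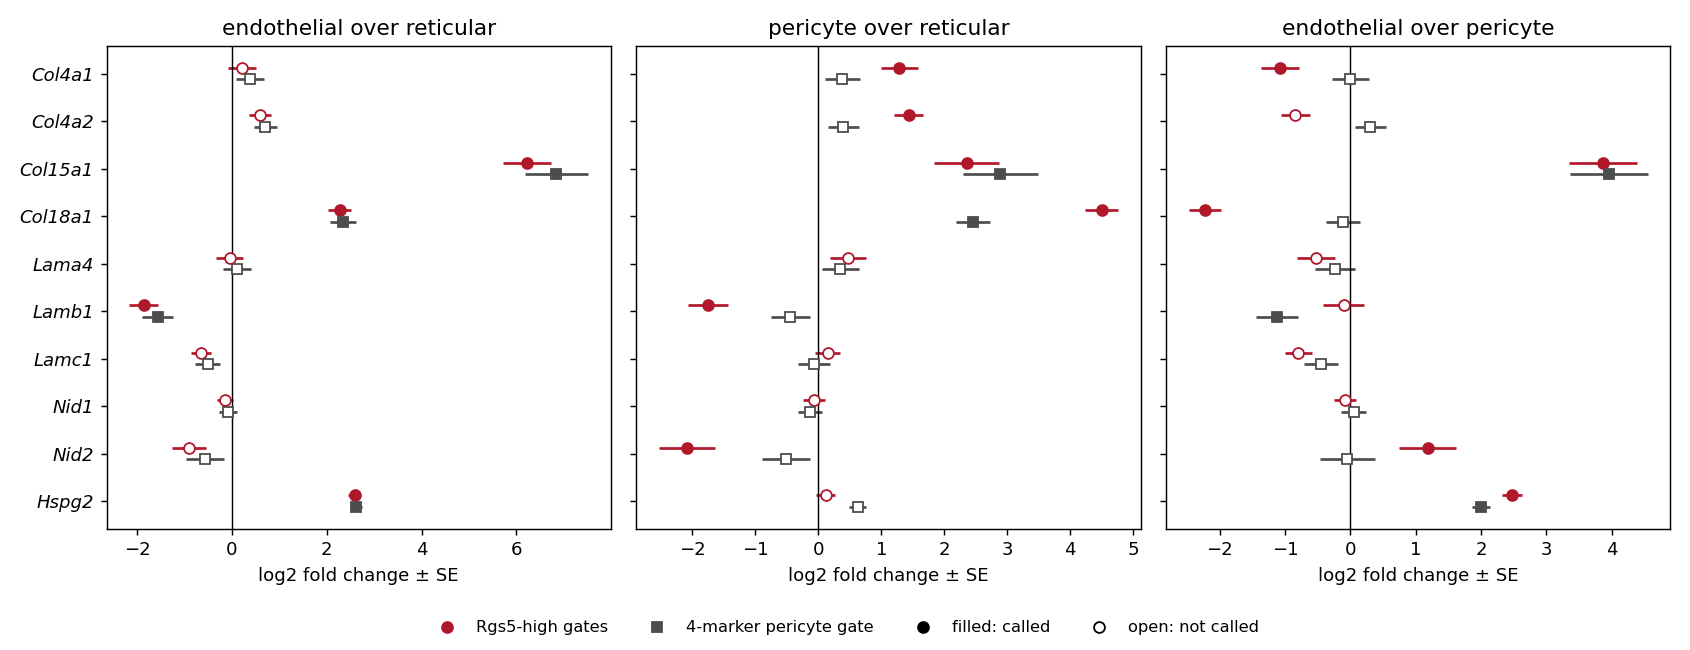
Log2 fold changes with SE for the 10 genes between gates, from edgeR, with circles for the gates that ask for high Rgs5 and squares for the 4-marker pericyte gate. Filled symbols were called. Hspg2 and Col15a1 are far to the right for endothelial over reticular cells, and Col18a1 for pericyte over reticular cells.

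Of the 3 laminin chains, 1 was called in endothelial over reticular cells. Lamb1, which encodes the laminin β1 chain, stood at 126, 262, 213, 42.5 and 81.4 CPM in endothelial cells, against 404, 484, 325, 397 and 368 CPM in reticular cells. The log2 fold change was -1.56 ± 0.32 (SE, edgeR adjusted p = 0.000583), lower in 5 of 5 libraries, with aged endothelial cells lowest. Lama4, encoding the laminin α4 chain of vessel laminin, and Lamc1, encoding the γ1 chain shared by most laminins, were not called in endothelial or pericyte over reticular cells under either pericyte gate. Lama4 stood at 170, 378, 254, 55.8 and 122 CPM in endothelial cells and 318, 392, 273, 226 and 258 CPM in Rgs5-high pericytes, against 141, 188, 129, 165 and 187 CPM in reticular cells. The endothelial values straddle the reticular ones, above them in exhausted, naive and aged-injury and below them in aged and control. Lamc1 stood at 289, 476, 407, 226 and 197 CPM in endothelial cells and 742, 643, 508, 528 and 480 CPM in Rgs5-high pericytes, against 399, 504, 338, 417 and 436 CPM in reticular cells. Of the linker genes, Nid1, encoding nidogen-1, was at 996, 911, 1072, 436 and 434 CPM in endothelial cells and 945, 1092, 1142, 453 and 745 CPM in Rgs5-high pericytes, against 662, 756, 890, 576 and 637 CPM in reticular cells. It was not called in any of the gate contrasts tested. Nid2, encoding nidogen-2, was at 71.8, 151, 164, 10.6 and 18.1 CPM in endothelial cells, against 123, 120, 134, 108 and 138 CPM in reticular cells. In Rgs5-high pericytes it lay lower, between 17.4 and 58.0 CPM. Its annotation overlaps that of Rtraf, so reads could be shared between them.

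Hmga2-positive stromal cells over reticular cells gave 3 of 10 genes higher and 0 lower, against 7.4% of genes called higher and 7.04% lower, over the naive, aged-injury and control libraries. They were Col15a1, Col18a1 and Hspg2. Without the aged-injury library 2 of the 10 were called, Hspg2 having a log2 fold change of 0.73 (edgeR adjusted p = 0.0862), and 73 genes in all were called, against 1890 with it. With gates that ask for low Cxcl12, which also place some cells that had passed a pair of gates, only the aged-injury library had enough cells, and the same 3 genes were called higher and Lamc1 lower, against 10.3% and 11.8% of genes, with the spread of that lone sum assumed to be like that of the other gates. The 8 reticular check markers summed to 14421 CPM in naive and 5667 CPM in aged-injury Hmga2-positive cells, against 14581 CPM in control ones. By this list alone the naive cells were like the control ones. Cxcl12 and Cd248, given above, set them apart. The 8 check markers of Hmga2-positive stroma summed to 18736 CPM in naive Hmga2-positive cells, against 5708 CPM in naive reticular cells. In naive and aged-injury Col15a1 stood at 634 and 638 CPM, Col18a1 at 554 and 522 CPM and Hspg2 at 204 and 160 CPM, against 13.2, 39.6 and 88.1 CPM in control Hmga2-positive cells, which number 22. Hmga2-positive cells of the aged library number 4, so they support no comparison.

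Ablated libraries were then set against uninjured ones within each gate, asking how many of the 10 genes were higher in all 3 ablated libraries than in both uninjured ones. In endothelial cells the count was 10 of 10, against 26.1% of 6684 genes. A stricter count, at least 2-fold above both, held for 4 of 10, Col4a1, Col18a1, Nid1 and Nid2, against 0.823% of genes. Nid2 was at 10.6 CPM in aged and 18.1 CPM in control, from 4 and 8 UMIs. It passed the minimum of 20 CPM on average through the ablated libraries, which favoured its place in both counts. In Rgs5-high pericytes it was 9 of 10, all but Lamc1, against 19.8% of genes, and at least 2-fold for 1 of 10, Col15a1, against 1.64%. Col15a1 had 0 UMIs in both uninjured pericyte sums and passed the minimum of 20 CPM on average through the ablated ones, so its place in both counts was favoured by that minimum. With the 4-marker pericyte gate 5 genes were higher, against 29.7%, and Lamb1 and Nid2 were lower, against 12.6%, while Col18a1 alone was at least 2-fold higher, against 0.726%. Col15a1 was among the 5, at 5.29 CPM in aged and 12.6 CPM in control, so the same minimum favoured it. No member was lower in Rgs5-high pericytes, against 11.6% of genes, or in endothelial cells, against 13.6%. The Rgs5-high count of 9 was 6 with stricter gates or with cells thinned to 3000 UMIs. In reticular cells the first count was 5 of 9 measured genes, Col4a1, Col4a2, Col18a1, Nid1 and Hspg2, against 32.3% of genes, and 0 were lower, against 9.11%. Col18a1 was at 18.96 CPM in aged and 12.6 CPM in control there, so the minimum of 20 CPM on average favoured its place. None of the 9 was at least 2-fold higher in reticular cells, against 0.298% of genes. No p is given for these counts, since the 3 ablated libraries differ in age, number of ablations and time since surgery, and the 2 uninjured ones in age, so they are not replicates of 1 condition. Because the 10 genes were chosen with earlier results of these data known, the shares over all genes describe and do not test the list.

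Col4a1 in endothelial cells stood at 2099, 3881 and 2912 CPM in exhausted, naive and aged-injury, against 494 CPM in aged and 828 CPM in control, from 2894, 8713, 18520, 186 and 366 UMIs in that order. The naive over control ratio was 4.69 (95% interval 4.22 to 5.22), and the aged-injury over aged ratio was 5.89 (5.097 to 6.84). Among endothelial cells, 9 of 10 genes were at least 2-fold higher in naive than in control, all but Hspg2, against 6.35% of genes, and 8 of 10 were so in aged-injury over aged, against 9.02%. The median log2 ratio of the 10 genes was 1.66 in naive over control, against 0.06 over all genes measured, and 2.17 in aged-injury over aged, against 0.11. In exhausted over control 4 of 10 genes passed, against 5.66%, and the median log2 ratio was 0.82. In each of these comparisons with an uninjured library, Nid2 was measured only through the ablated one, so the 20 CPM minimum favoured its call. Exhausted endothelial cells were below naive ones, with a median log2 ratio of -0.92 and 3 of 10 genes at least 2-fold lower, Lama4, Lamb1 and Nid2, against 2.42%. The make-up of the gate differed between these libraries, with a UMI of Stab2, a sinusoid gene, in 62.5% of exhausted and 35.2% of naive endothelial cells. Within cells that had one, the median log2 ratio was -0.66 and the genes at least 2-fold lower were Col18a1 and Lama4. Within cells that had none it was -0.62 and the only such gene was Nid2, so Lamb1 passed in neither. No share or median over all genes was computed within these sets of cells, so their values are a description only. In aged over control 1 of 9 measured genes passed, Lama4, which was lower at 55.8 CPM in aged and 122 CPM in control, against 4.41% of genes.

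Rgs5-high pericytes gave the same comparisons on fewer cells. In naive over control 5 of 10 genes were at least 2-fold higher, Col4a1, Col4a2, Col15a1, Lamb1 and Hspg2, against 5.08% of genes. Of the 10, 7 passed in aged-injury over aged, all but Lama4, Lamc1 and Hspg2, against 8.43%. Col4a1 was 3.76-fold higher in aged-injury than in aged (95% interval 3.31 to 4.28), and Col18a1 5.14-fold (3.86 to 7.01). In exhausted over control only Col15a1 passed, against 3.52%, and in exhausted over naive it was lower, against 4.78%. Col15a1 had 0 UMIs in control and in aged, and Nid2 had 3 UMIs in aged, at 17.4 CPM. Over those libraries both genes were measured only through the ablated one, so the 20 CPM minimum favoured their calls. Only 8.33% of exhausted and 14.1% of naive pericytes had a Col15a1 UMI, with 56.25% and 38.7% of these UMIs in 1 cell of each library. Aged pericytes were below control ones for Col4a1, at 1399 CPM in aged and 2971 CPM in control, and for Col18a1, at 273 CPM in aged and 745 CPM in control, 2 of 9 measured genes against 4.07%. The aged and control values come from 26 and 21 cells, and 22.4% of aged Col4a1 UMIs were in 1 cell.

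The endothelial levels of the uninjured libraries rest on few cells. Endothelial cells made up 0.675% of kept cells in aged and 0.562% in control, against 2.80%, 5.04% and 3.23% in exhausted, naive and aged-injury. How endothelial and blood cells came into a sort for red cells was not tested. Nid2 had 4 UMIs in the 51 aged cells and 8 UMIs in the 52 control cells, with 50% and 25% of them in 1 cell, so its ratios are wide, at 15.4 (6.01 to 56.8) for aged-injury over aged. Cxcl12, a reticular gate gene, stood at 617, 1016, 1715, 3767 and 2027 CPM in the endothelial sums, highest in aged and control. Summed levels of the 8 reticular check markers were 793 to 1489 CPM in the 3 ablated endothelial sums, against 1396 to 2241 CPM in the 2 uninjured ones, and none of the 8 was at 0. The 8 check markers of Hmga2-positive stroma summed to 252, 500.2 and 1632 CPM in exhausted, naive and aged-injury, against 486 CPM in aged and 500.005 CPM in control, and 6 chondrocyte markers to 0, 2.23 and 89.3 CPM, against 2.66 CPM in aged and 9.05 CPM in control. Both lists were thus highest in aged-injury, and their part in its endothelial levels was not tested. After subtraction of a reticular profile scaled by Adipoq, all 10 genes were higher in the ablated endothelial sums. Reticular markers reached higher in the uninjured sums, so this subtraction could take more from those and cannot decide the part of reticular RNA. Summed endothelial check markers were 5219 to 7019 CPM in ablated and 5793 to 6740 CPM in uninjured, and so overlapped.

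**Figure D3:**
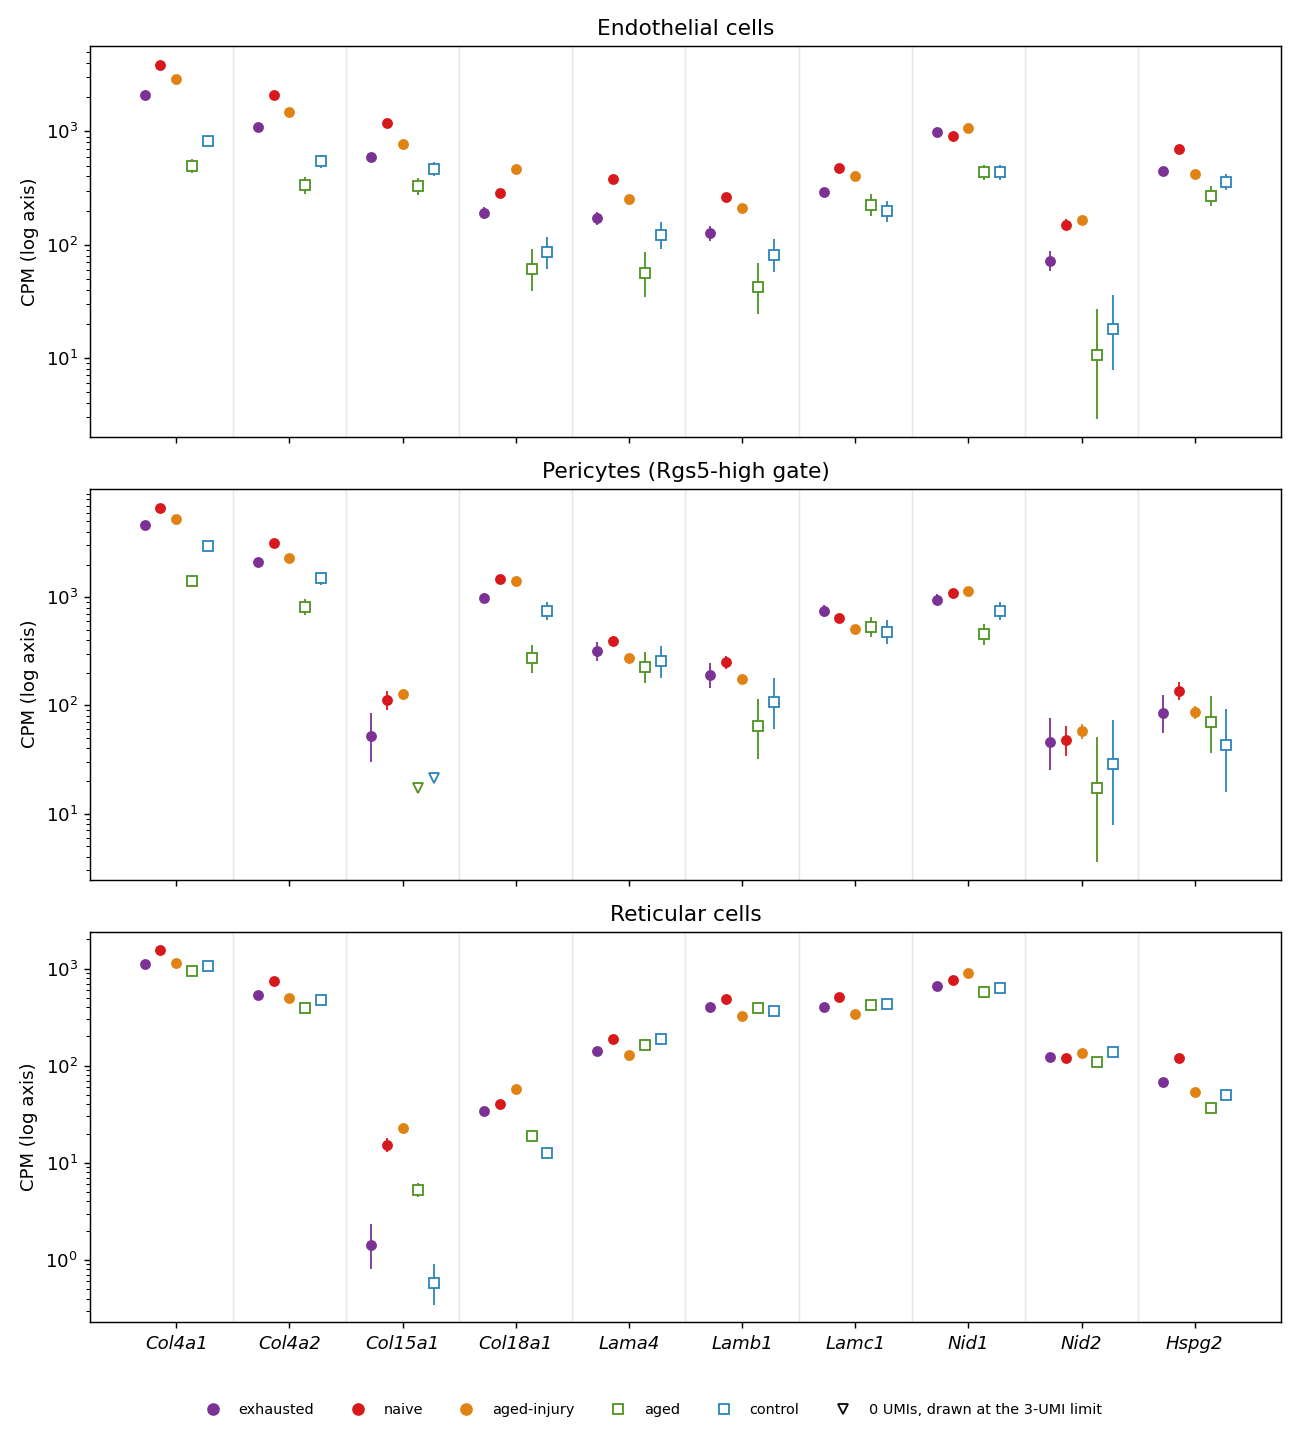
CPM of each gene by library in endothelial cells, Rgs5-high pericytes and reticular cells on a log axis, with counting intervals. Filled circles are ablated libraries and open squares uninjured ones. In endothelial cells every filled circle lies above both squares, and in reticular cells the groups overlap for Col15a1, Lama4, Lamb1, Lamc1 and Nid2.

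Sinusoidal and other endothelium were then separated by Stab2, a scavenger receptor of sinusoids, counted as at least 1 UMI. This was done after the data had been seen. Stab2-positive cells numbered 110, 93, 288, 31 and 23, and cells with no Stab2 UMI numbered 66, 171, 342, 20 and 29. Col15a1 was at 158, 183, 111, 0 and 18.8 CPM in Stab2-positive cells, against 1304, 1700, 1266, 698 and 716 CPM in cells without Stab2. Nid1 ran the other way, at 1237, 1202, 1414, 555 and 782 CPM in Stab2-positive cells, against 603, 760, 826, 301 and 238 CPM in cells without Stab2. Col4a1 was at 1555, 2644, 1666, 415 and 713 CPM in Stab2-positive cells, against 2989, 4523, 3811, 584 and 893 CPM in the others. Stab2-positive cells gave 9 of the 10 genes higher in all 3 ablated libraries, with Hspg2 the exception, against 23.7% of genes, and cells without Stab2 gave 10 of 10, against 25.3%. In Stab2-positive cells of aged and control, Col15a1 had 0 and 3 UMIs, Col18a1 2 and 0, and Nid2 0 and 1. These genes passed the minimum of 20 CPM on average through the ablated libraries, which favoured their place among the 9. A cell is placed by 1 UMI, so depth decides in part which side it falls on.

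**Figure D4:**
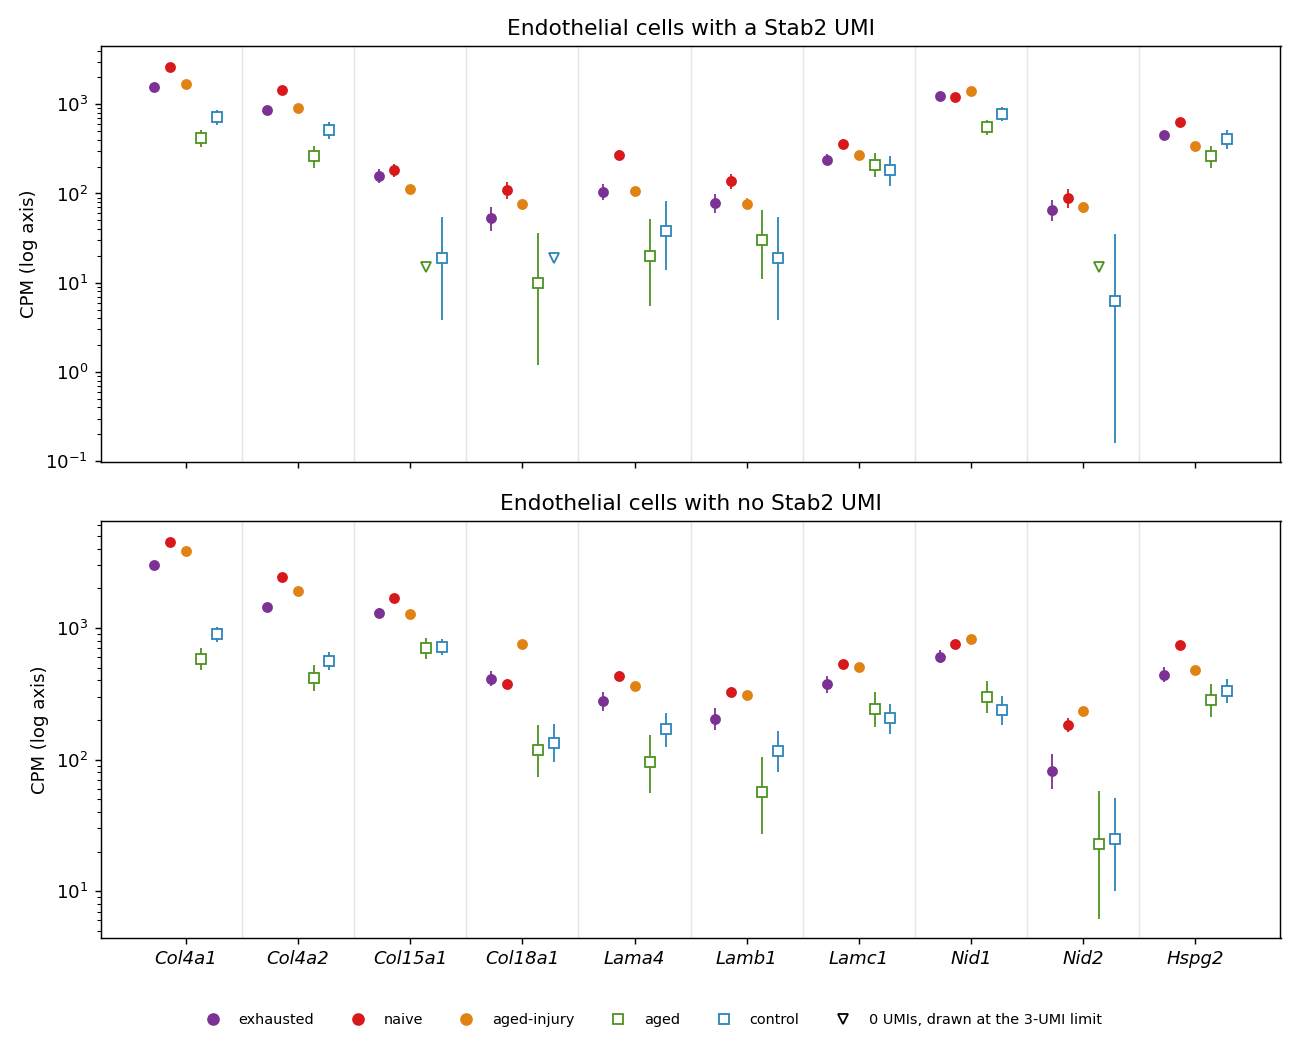
CPM of the 10 genes in endothelial cells with and without a Stab2 UMI, by library, on a log axis with counting intervals. Col15a1 is low in Stab2-positive cells and Nid1 is higher there, in every library.

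In reticular cells the median log2 ratio of the members was 0.08 in exhausted over control, against 0.05 over all genes measured, and 0.39 in naive over control, against 0.11. Col18a1 was 2.68-fold higher in exhausted than in control (95% interval 2.32 to 3.10) and 3.15-fold higher in naive than in control (2.75 to 3.62), and Hspg2 was 2.37-fold higher in naive than in control (2.20 to 2.56). Those were 1 of 9 measured genes in exhausted over control, against 1.02% of genes, and 2 of 9 in naive over control, against 2.31%. Col18a1 was at 12.6 CPM in control, so it was measured only through its 33.9 CPM in exhausted and 39.9 CPM in naive. The 20 CPM minimum thus favoured its call in both. In aged-injury over aged 2 of 10 passed, Col15a1 at 4.33-fold (3.66 to 5.16) and Col18a1 at 3.05-fold, against 1.9% of genes. Col15a1 was measured there only through its 23.0 CPM in aged-injury, and Col18a1 only through its 57.9 CPM, so for both the 20 CPM minimum favoured a call. With free RNA subtracted the count there was 0 and Col18a1 was at 0.37 on the log2 scale, and neither gene passed after that subtraction. The blood gate that measures free RNA in aged-injury holds 85 cells, of which 1 held 64.7% of the Col18a1 UMIs and 1 held 38.8% of the Col15a1 UMIs, with Col4a1 at 199 CPM, against 17.4 to 49.97 CPM in blood cells of the other libraries. Of 9 measured members none was at least 2-fold apart in exhausted over naive, against 0.329% of genes higher and 0.598% lower, and of 8 none in aged over control, against 0.516% and 0.485%. Col15a1 was under 20 CPM in both libraries of each of those pairs, as was Col18a1 in aged and control, and so was not measured. Reticular Lamb1 ranged from 325 CPM in aged-injury to 484 CPM in naive, and Nid2 from 108 CPM in aged to 138 CPM in control.

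The genes that assemble and modify collagen IV were listed as well. Of 11 measured in endothelial cells, 7 were higher in all 3 ablated libraries than in both uninjured ones and 0 were lower, against 26.1% and 13.6% of all genes. They included Sparc, a matrix glycoprotein that binds collagen IV, at 6522, 7334 and 7327 CPM in exhausted, naive and aged-injury, against 2074 CPM in aged and 2794 CPM in control. Pxdn, a peroxidase that crosslinks collagen IV, stood at 218, 281 and 264 CPM, against 58.5 CPM in aged and 174 CPM in control. Of 10 measured receptors of basement membrane proteins, 4 were higher in the same sense, Itga2, Itga6, Itgb1 and Plxnd1, and 2 were lower, Itgb4 and Bcam. Bcam, a receptor for laminin α5, stood at 108, 119 and 78.9 CPM in exhausted, naive and aged-injury, against 276 CPM in aged and 346 CPM in control. Of 4 other laminin and collagen genes measured in endothelial cells, 1 was higher, Lama5, and 1 lower, Lamb2. Of 7 other basement membrane genes, 4 were higher, Sparc among them, and 2 lower, Tinagl1 and Ntn1. In Rgs5-high pericytes these lists gave 2 higher and 3 lower of 8, and 2 higher and 3 lower of 6. Among those lower, Col4a4 and Col4a5 were under 20 CPM in all 3 ablated libraries, so the same minimum favoured their places. The collagen IV assembly list gave 9 higher and 0 lower of 11 there, against 19.8% and 11.6% of genes. Pxdn was among the 9, at 0 CPM in aged and 21.5 CPM in control pericytes, so the minimum of 20 CPM on average favoured its place. Among receptors tested between gates, Itgb4, an integrin subunit of laminin binding, was higher in endothelial than in reticular cells by 7.48 ± 0.27 on the log2 scale (SE, edgeR adjusted p = 9.67e-13), and Itga7, an integrin subunit for laminin in muscle and mural cells, was higher in Rgs5-high pericytes than in reticular cells, at 465 to 676 CPM, against 0.363 to 0.947 CPM.

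Of the genes whose levels tracked a member most closely over the 18 sums, among 3776 genes of at least 50 CPM on average, Fbln2 had Pearson's r = 0.95 with Col15a1, Asxl2 had r = 0.92 with Lama4, Cfap20 had r = 0.87 with Nid2 and Tnks2 had r = 0.84 with Col4a1. These are descriptions over sums that share libraries and depth.

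**Figure D5:**
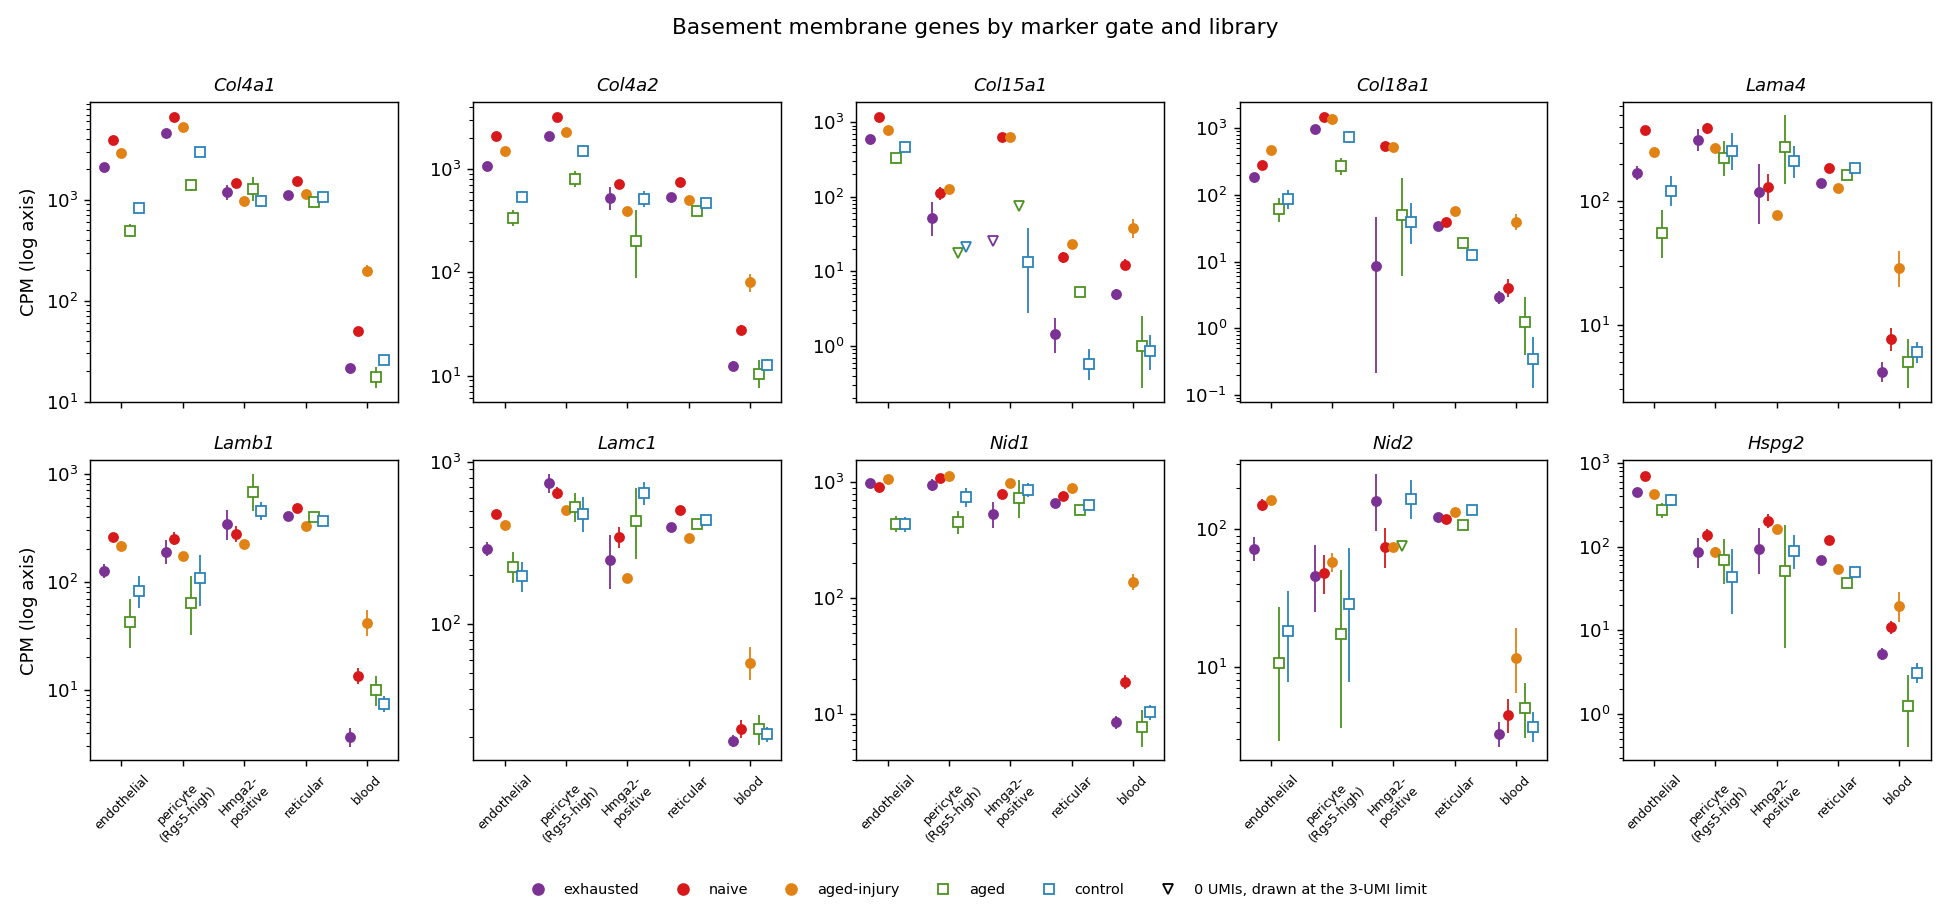
CPM of each of the 10 genes in endothelial cells, Rgs5-high pericytes, Hmga2-positive cells, reticular cells and blood cells of each library, on a log axis with counting intervals. Open triangles stand for 0 UMIs at the limit of 3. Blood cells, a measure of free RNA, lie below endothelial and reticular cells of the same library for every gene except Col15a1 in reticular cells of exhausted, aged-injury and control. The aged-injury blood values rest on 85 cells.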

How the data were processed

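The authors deposited raw UMI counts, 1 gene by cell matrix for each of 5 libraries. Seurat 5.1 and GRCm39 are named in the submitters' processing notes. The aligner, the counter and any use of strand are not stated there. Libraries were joined by gene symbol, with an unlisted symbol counted as 0, and no coordinates of the files were used.

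A cell was kept if it had 500 or more genes, 1000 or more UMIs and a mitochondrial share below 25%. Gates used UMIs of marker genes, none of them a member, and a cell passing 2 gates was left out. No doublet caller was run. Cell labels shared between libraries numbered 0 to 5 per pair. UMIs were summed per library and gate, and a sum needed 20 cells to enter a fit. Gate contrasts used edgeR 4.0.16 in R 4.3.3 with TMM, the library as block and a filter on low counts, and DESeq2 1.42.0 was an alternative. Contrasts between libraries are CPM ratios with exact conditional binomial 95% intervals, over genes of at least 20 CPM in either library, and cover counting error only. Counts of genes apart in ablated and uninjured libraries used genes averaging at least 20 CPM. Scripts were tested on simulated data. Promoter windows came from RefSeq, build GRCm38.p6. The members and gene lists were chosen with earlier results of these data known. From the other lists, genes were named when called with the largest log2 fold change, at most 4 per contrast, and like genes were those with the highest correlation. Sparc, Pxdn, Bcam, Rtraf, the Rgs5-high gate and the Stab2 split were chosen after seeing the data.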

Additional observations from a re-analysis of the deposited data

Results flagged for a closer look

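In reticular cells, the ratios of 3 genes had opposite signs in naive over control and in aged-injury over aged. The log2 ratio of Lamb1 was 0.39 in naive over control and -0.29 in aged-injury over aged. That of Lamc1 was 0.21 in naive over control and -0.30 in aged-injury over aged. For Nid2 it was -0.20 in naive over control and 0.30 in aged-injury over aged. In exhausted over control, the other ablated library of 15 weeks, the log2 ratio was 0.13 for Lamb1, -0.13 for Lamc1 and -0.17 for Nid2, so that of Lamc1 had the sign of aged-injury over aged. Each ratio compares 1 library with 1 library, the naive library was taken 2 weeks and the aged-injury library 1 week after surgery, and the difference between the ratios was not tested.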

How the results depend on the processing

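No paired analysis was possible because each group is 1 library, so no replicate numbers pair the groups. Of the counts reported, 149 alternative values stayed within 1.5 times and 22 did not. The count of 4 members called in endothelial over reticular cells was 4 under every alternative run. For pericyte over reticular cells (2 members, 850 genes), members numbered 1 without the library block, 6 with stricter gates, 6 with thinned cells, 1 with free RNA subtracted and 6 with Rgs5-high gates, and genes numbered 2523 with stricter gates, 1486 with thinned cells, 173 with free RNA subtracted and 2891 with Rgs5-high gates. Leaving out each library gave 540 to 1063 genes there, lowest without aged-injury. For Hmga2-positive over reticular cells (3 members, 1890 genes), free RNA subtraction gave 1 member and 294 genes, cells in both gates put with Hmga2-positive gave 844 genes and Rgs5-high gates 3264. Leaving out each library gave 73 to 2780 genes, with 73 without aged-injury and 1236 without naive. Thinning left this contrast under 20 cells a sum, so it was not run. Thinning gave 2702 genes for endothelial over reticular cells (as reported 4270) and 2341 for endothelial over pericyte (as reported 4109), where Rgs5-high gates gave 5 members (as reported 3). Reticular members apart numbered 1 for exhausted over naive with a gate by Cxcl12 alone (as reported 0), and for aged-injury over aged 1 with stricter gates and 0 with free RNA subtracted (as reported 2).

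Signs turned in some alternatives, given here as log2 fold changes of genes not called with the 4-marker gate. With Rgs5-high gates, Lama4 in endothelial over reticular cells turned from 0.11 to -0.049. Lamc1 in pericyte over reticular cells turned from -0.066 to 0.15, and Nid1 in Hmga2-positive over reticular cells from 0.12 to -0.063. In endothelial over pericyte, Nid1 turned from 0.052 to -0.080 and Col4a2 from 0.31 to -0.84. Other turns in that contrast follow. Col4a1 was at -0.022 with no filter, -0.97 with stricter gates, -1.03 with thinned cells, -0.072 with free RNA subtracted and -1.08 with Rgs5-high gates, and leaving out each library gave -0.12 to 0.21. Nid2 was at 0.0028 without TMM, 0.69 with stricter gates, 0.93 with thinned cells and 1.18 with Rgs5-high gates, and leaving out each library gave -0.46 to 0.30. Leaving out each library gave -0.27 to 0.12 for Col18a1. The causes were not tested. Few endothelial and pericyte cells in aged and control limit what depth can show there.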
